A study of Mus musculus with 4 samples.

Results

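The Ly6 surface proteins of tumor-infiltrating immune cells were described from the single-cell RNA counts of 4 libraries of CD45+ cells sorted from MC38 tumors, a mouse colon carcinoma line. The members were taken by name from a list of 6 genes (Ly6a, Ly6c1, Ly6c2, Ly6e, Ly6g and Ly6i). Of these, 4 were analysed here, Ly6a, Ly6e, Ly6g and Ly6i, among 19059 genes in the matrices, and Ly6c1 and Ly6c2 were not analysed here. The choice was made with results of these libraries in view: Ly6i had drawn attention by its higher level under the combined treatment, in particular in T cells, and was chosen by that ratio of combination to isotype, so the ratios between libraries given for it are a description and carry no test.

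All mice were B-hCTLA-4 animals, C57BL/6 mice in which human CTLA-4 replaces the mouse receptor, and all carried subcutaneous MC38 tumors. The isotype group received human IgG1 (10 mg/kg), and the other groups received ipilimumab, an anti-CTLA-4 human IgG1 (10 mg/kg), AT130-2, an antibody to mouse FcγRII in a mouse IgG1-N297A format with reduced Fc binding (20 mg/kg), or both. Per the labels, treatment was given 3 times from a tumor volume of about 100 mm3, and tumors were taken on day 8 and pooled from 11 mice into 1 library per group. The article on these data describes fewer pooled tumors, a smaller starting volume, an earlier harvest and lower doses, and the values above are those of the labels. For both single-antibody libraries, the sample title and the treatment field name opposite antibodies. They are therefore called library A (titled anti-human CTLA-4) and library B (titled anti-mouse FcγRII), and no direction is drawn from either as an effect of its antibody. Values are given throughout in the order isotype, library A, library B, combination.

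Ly6 genes encode small cysteine-rich proteins that are held to the outer membrane by a glycosylphosphatidylinositol anchor. Ly6a, also known as Sca-1, marks stem cells and is present on activated and memory lymphocytes, where interferon induces it. Ly6e is expressed broadly and is interferon-inducible, Ly6g is the usual surface marker of mouse neutrophils, and Ly6i was described on cells of the myeloid lineage.

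The 4 genes lie in 1 cluster on mouse chromosome 15 (GRCm38, GENCODE M21): Ly6e at chr15:74955051-74959905 on the plus strand, Ly6i at chr15:74979534-74983430 on the minus strand, Ly6a at chr15:74994877-74998031 on the minus strand and Ly6g at chr15:75155240-75159126 on the plus strand. Each has 3 coding exons, with 405 coding bases for Ly6a, Ly6g and Ly6i and 411 for Ly6e. The start of each coding sequence is shown because probe-based counts depend on how far the paralogs differ. The first 75 coding bases are given 5′ to 3′ from the reference transcripts, and capitals mark the bases that differ from Ly6a in the pairwise alignment. Gaps of the alignment are not printed, so the Ly6e row does not line up with the Ly6a row by position. Capitals in the Ly6e row include bases set against a gap.
Ly6a: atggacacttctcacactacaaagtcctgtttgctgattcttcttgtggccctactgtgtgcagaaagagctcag
Ly6i: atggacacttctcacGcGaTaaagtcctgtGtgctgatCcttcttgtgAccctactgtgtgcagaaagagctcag
Ly6g: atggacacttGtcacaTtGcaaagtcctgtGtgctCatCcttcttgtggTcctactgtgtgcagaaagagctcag
Ly6e: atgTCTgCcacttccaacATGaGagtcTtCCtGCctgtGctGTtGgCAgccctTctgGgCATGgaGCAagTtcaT
In this stretch 6 bases were marked for Ly6i, 7 for Ly6g and 30 for Ly6e, where bases set against a gap are counted. Over the whole coding sequence Ly6a and Ly6i were 86.4% identical, with a longest shared run of 80 bases, Ly6a and Ly6g were 84.1% identical with a run of 35, and Ly6g and Ly6i were 79.5% identical with a run of 51. Ly6e was 54.1 to 56.0% identical to the other 3 and shared runs of at most 10 bases. The sequences of the assay's probes were not used here, so whether a probe for Ly6a, Ly6i or Ly6g also reads another of these 3 was not tested.

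The libraries held 129151823 to 196362818 unique molecular identifiers (UMIs) in 6097 to 8173 cell barcodes each, and 26782 cells passed the filters. No full cell barcode was shared between libraries, while 712 to 1148 droplet barcodes, read without the probe barcode, were shared by each pair. The members were followed in monocyte-like, macrophage-like, neutrophil-like, T cell-like and NK cell-like clusters, called monocytes, macrophages, neutrophils, T cells and NK cells from here on. The clusters were built without the Ly6 genes. Macrophages held 3570, 2967, 3475 and 3480 cells, T cells 501, 680, 272 and 508, and NK cells 365, 421, 235 and 460. Neutrophils were few in 3 libraries, with 112, 91, 49 and 468 cells. With 1 library per group nothing could be tested between groups. Levels are UMIs per 1000000 UMIs of the class (CPM). The intervals in parentheses are exact 95% Poisson intervals for a level and exact conditional intervals for a ratio. They cover the counting error of independent UMIs only, and not the spread between cells or the difference between mice. Levels of a gene are compared between classes and libraries, not between genes.

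Macrophage RNA was found in the other classes, and its amount differed between libraries. The 14 macrophage markers, all measured and none at 0, summed to 18584, 6381, 20181 and 15867 CPM in T cells, to 10249, 1236, 8378 and 6296 in NK cells and to 11218, 7502, 20428 and 8052 in neutrophils, against 34441 to 43075 in macrophages. The 10 general myeloid markers summed to 6356, 2317, 7183 and 6809 CPM in T cells and to 4410, 344, 3452 and 2526 in NK cells. In neutrophils they summed to 8686, 11901, 11454 and 13004 CPM. Each class carried its own markers in all libraries: the T cell list summed to 4912 to 9514 CPM in T cells, the NK list to 3746 to 6223 in NK cells and the neutrophil list to 30989 to 47998 in neutrophils. In monocytes the macrophage list summed to 7519, 6286, 9362 and 9983 CPM, and its part in the monocyte values was not tested. For Ly6i and Ly6a, values in T cells and NK cells low in both lists, and in neutrophils low in the macrophage list, are given below. The Ly6i UMIs expected from macrophage RNA are given for these classes, and the expected Ly6a UMIs for T cells. Neither measures the part of macrophage RNA in a ratio. For Ly6e and Ly6g, only the ratio in neutrophils low in the macrophage list is given.

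Of the 20 pairs of a member and a class, 14 reached 50 CPM in at least 1 of the isotype and combination libraries, and 7 of these were at least 2-fold higher in the combination library, with none 2-fold lower. The 7 were Ly6a and Ly6i in monocytes, macrophages and neutrophils, and Ly6i in T cells. Ly6i in macrophages and in T cells reached the minimum through the combination library alone, and Ly6i had been chosen for this ratio, so the count is a description and nothing is read from it against the shares of all genes. Among all genes passing the same minimum, 2.23% were at least 2-fold higher in monocytes, 2.16% in macrophages, 4.1% in neutrophils, 1.27% in T cells and 0.744% in NK cells, and 0.434%, 0.711%, 5.37%, 0.6% and 1.21% were 2-fold lower in the same order of classes. Library A against isotype gave 2 higher pairs of 12, Ly6a and Ly6i in neutrophils, and 1 lower pair, Ly6a in NK cells. Of all genes in that comparison, 3.03% were higher in neutrophils, against 0.0884% in monocytes, 0.153% in macrophages, 2.07% in T cells and 0.128% in NK cells, and 6.08% were lower in NK cells, against 0.11%, 0.0219%, 8.21% and 6.22% in monocytes, macrophages, neutrophils and T cells. Both calls in neutrophils and the one in NK cells thus fell in classes where many genes differed between these libraries. Library B against isotype gave no pair of 12 in either direction, although Ly6a in macrophages reached 0.570 of the isotype level. Ly6i in macrophages stood lower still, at 0.470 of isotype (11.5 against 24.5 CPM), and was not counted because both libraries were under 50 CPM. In the order monocytes, macrophages, neutrophils, T cells and NK cells 0.198%, 0.0435%, 5.74%, 0.113% and 0.169% of genes were higher and 0.0219%, 0.109%, 4.34%, 0.245% and 0.488% lower. Against library A the combination was at least 2-fold higher in 4 of 14 pairs (Ly6a in monocytes and NK cells, Ly6i in macrophages and T cells), where 1.32%, 1.17%, 3.82%, 6.3% and 4.32% of genes were, and against library B in 6 of 14 (Ly6a and Ly6i in monocytes and macrophages, Ly6a in neutrophils, Ly6i in T cells), where 1.27%, 2.7%, 4.77%, 1.66% and 0.791% were. Ratios to isotype share the isotype library and are set side by side as values only.

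**Figure D1:**
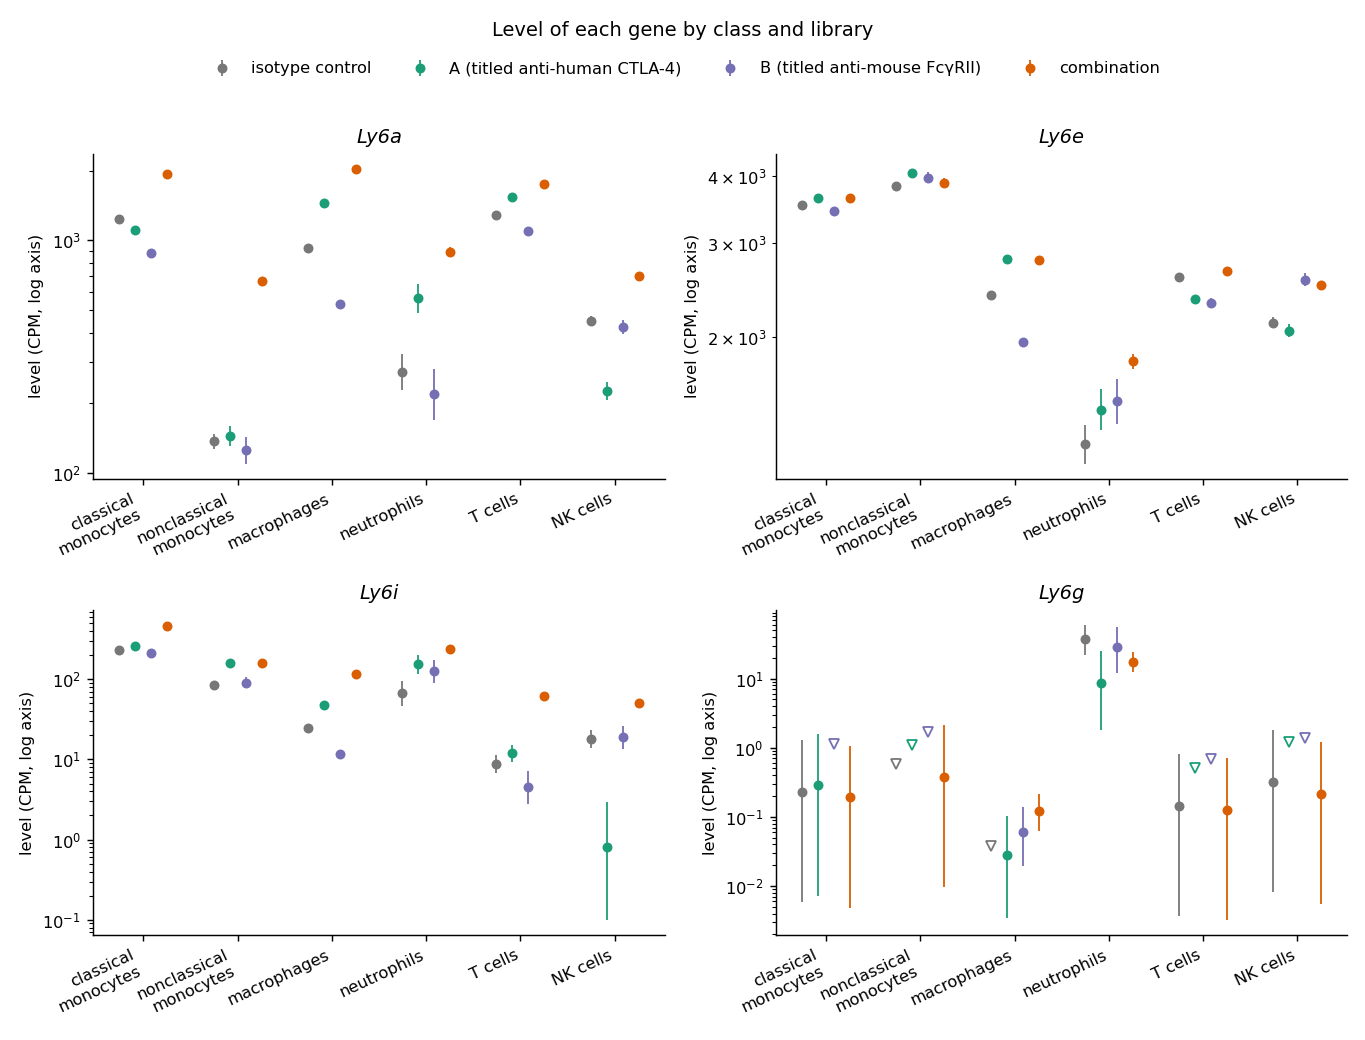
Level of Ly6a, Ly6e, Ly6i and Ly6g (CPM, log axis) in 6 cell classes and 4 libraries, with bars for 95% Poisson intervals and open triangles for the limit that a count of 0 allows. The combination library is the highest of the 4 for Ly6a and Ly6i in macrophages, neutrophils, T cells and NK cells, Ly6e stays between 1261 and 4050 CPM, and Ly6g is measured above 1 CPM in neutrophils only.

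Ly6a, the Sca-1 antigen, was detected in every class and was highest under the combination in each of the 5. In macrophages it measured 932 (925–938), 1454 (1445–1463), 531 (526–536) and 2031 (2022–2040) CPM. The 4 intervals did not overlap, with library B below isotype and library A between isotype and combination. The combination was 2.18-fold (2.16–2.20) above isotype, 1.40-fold above library A and 3.82-fold above library B. After each macrophage was thinned to 1891 UMIs, the share of macrophages with a Ly6a UMI was 53.3%, 69.9%, 34.0% and 80.8%, in the same order of libraries as the levels.

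In classical monocytes, the inflammatory subset, Ly6a measured 1241, 1104, 883 and 1931 CPM, a ratio of 1.56 (1.51–1.61) for combination over isotype. In nonclassical monocytes, the patrolling subset, it measured 136 (126–147), 144 (130–159), 125 (109–143) and 667 (637–699) CPM. The first 3 of these could not be told apart at this depth, and the combination stood 4.91-fold (4.49–5.36) above isotype. Over all monocytes the macrophage list summed to 7519 CPM under isotype and 9983 CPM under the combination. The part of macrophage RNA in this ratio was not tested. Of all genes tested in nonclassical monocytes 2.58% were at least 2-fold higher, and in classical monocytes 1.12%. Over both subsets together the ratio was 2.33 (2.26–2.41), and it was 1.94 when the clusters were weighted to their isotype shares. Nonclassical monocytes made up 7.25%, 5.11%, 3.03% and 3.03% of cells, so the pooled monocyte value moved with the mix of subsets.

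Neutrophils measured 272 (226–324), 563 (487–647), 219 (168–280) and 894 (855–935) CPM of Ly6a. The isotype and library B intervals overlapped, and library A and the combination lay above both. The ratio to isotype was 2.07 (1.65–2.62) for library A and 3.29 (2.74–3.98) for the combination. In neutrophils with 5 or more neutrophil marker UMIs, Ly6a UMIs lay in 31, 21, 8 and 216 of 110, 89, 47 and 463 cells. The higher level of library A thus came without more positive cells than under isotype. The macrophage list was under 0.1% of UMIs in 34, 37, 27 and 125 neutrophils. Their Ly6a levels were 82.6, 256, 40.9 and 579 CPM, from 8, 31, 4 and 246 UMIs in 6, 7, 2 and 56 cells. The combination ratio was 7.0 (3.50–16.4), so the difference was also seen in the cells lowest in the macrophage list, on 8 isotype UMIs. The myeloid list was not used to choose these cells, and the part of monocyte RNA in their Ly6a was not tested.

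T cells measured 1294, 1544, 1102 and 1746 CPM of Ly6a, a narrower range than in myeloid cells, with a ratio of 1.35 (1.31–1.39) for the combination. That ratio depended on which cells were counted. It was 0.972 when the libraries were clustered without integration, and 1.02 (0.953–1.08) in T cells with under 0.1% of UMIs in both the macrophage and the myeloid list, where the levels were 1653, 1520, 1791 and 1679 CPM in 212, 525, 153 and 210 cells. Where macrophage genes took at least 1% of UMIs, the ratio was 1.59. The makeup of T cells differed between libraries too, and its part in the pooled value was not tested. Kinds were called without thinning, from UMIs of Cd8a or Cd8b1 (CD8), Cd4 (conventional CD4) or Cd4 with Foxp3 (regulatory). Cells with any other mix of these genes are not given. A regulatory cell without a Foxp3 UMI would count as conventional CD4. CD8 T cells, the cytotoxic kind, measured 863, 1420, 930 and 1605 CPM (ratio 1.86, 1.77–1.96), and conventional CD4 T cells, the helper kind, measured 1395, 1889, 1112 and 2343 CPM (1.68, 1.57–1.80). Regulatory T cells, which restrain other T cells, measured 2149, 2423, 1499 and 1439 CPM, with only 10 such cells in the combination library against 107 under isotype. In cells low in both lists, the ratio was 1.44 (1.27–1.63) for CD8 cells, from 993 CPM in 53 cells to 1425 CPM in 110 cells, and 1.43 (1.26–1.62) for conventional CD4 cells, from 1780 CPM in 60 cells to 2545 CPM in 49 cells. The value near 1 over all low cells thus stood beside higher values within both of these kinds, while regulatory T cells, with a high isotype level of 2917 CPM in that range, numbered 48, 39, 27 and 3.

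NK cells measured 450 (426–474), 225 (206–244), 424 (397–452) and 699 (676–724) CPM of Ly6a. Library A was the lowest, at 0.500 (0.452–0.552) of isotype, and it was also the library whose NK cells held the least macrophage RNA. The combination stood 1.56-fold (1.46–1.66) above isotype and 3.11-fold above library A. The cluster led by Gzma, which encodes granzyme A, a protease of cytotoxic granules, measured 365, 59.3, 374 and 915 CPM, a ratio of 2.51 (2.28–2.76). In the cluster led by Gzmd, which encodes granzyme D, the values were 536, 363, 461 and 570 CPM, a ratio of 1.06 (0.977–1.16). NK cells low in both lists measured 257, 155, 328 and 394 CPM (1.53, 1.33–1.77).

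**Figure D2:**
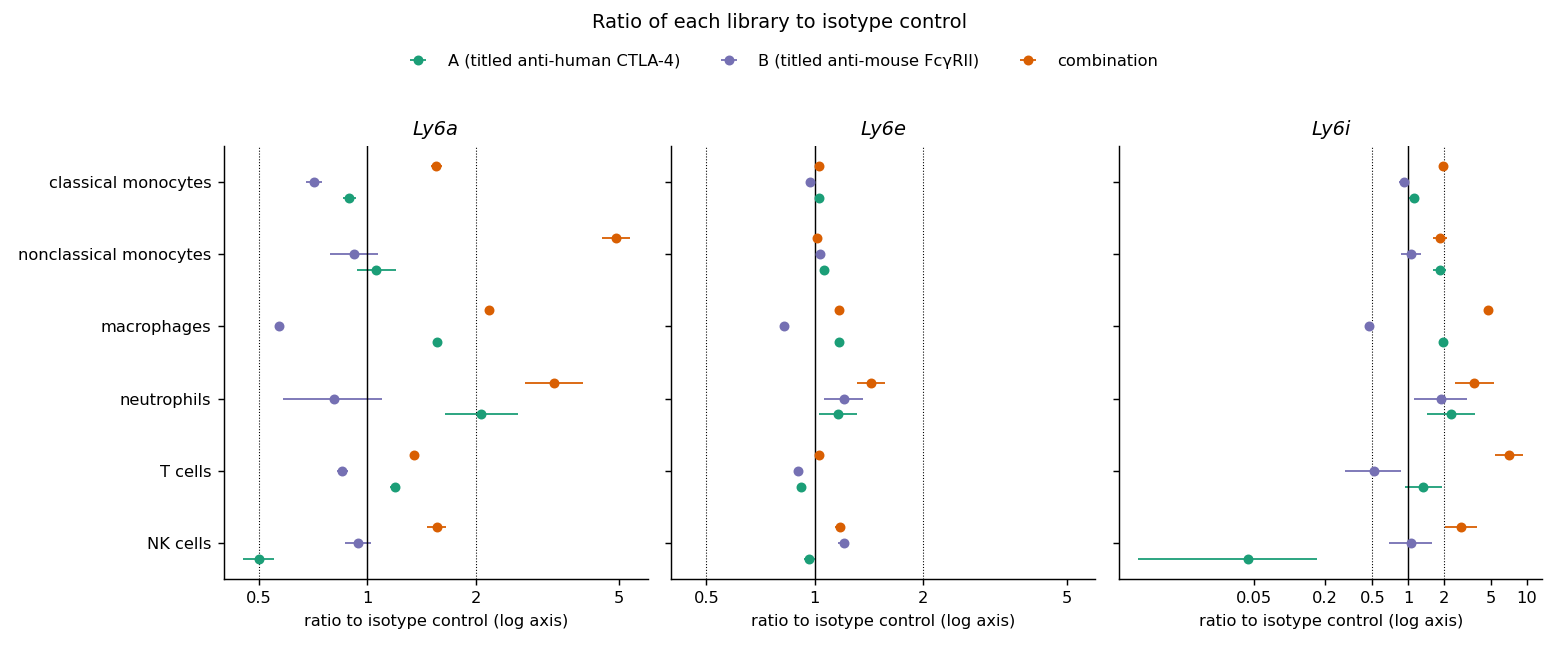
Ratio of library A, library B and the combination to isotype (log axis) for Ly6a, Ly6e and Ly6i by class, with 95% counting intervals and lines at 0.5, 1 and 2. Across the 6 classes shown, the combination ratios run from 1.35 to 4.91 for Ly6a and from 1.86 to 7.02 for Ly6i, and from 1.01 to 1.43 for Ly6e.

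Ly6e, the broadly expressed member, differed least between libraries. Monocytes measured 3691, 3816, 3646 and 3716 CPM, with a ratio of 1.01 (0.991–1.02) for combination over isotype. Macrophages measured 2394, 2794, 1961 and 2791 CPM, so that library B was again the lowest, and the combination stood 1.17-fold (1.16–1.17) above isotype. T cells measured 2585, 2361, 2320 and 2661 CPM (1.03), and NK cells 2128, 2055, 2561 and 2498 CPM (1.17). Neutrophils had the lowest levels, 1261, 1464, 1517 and 1802 CPM, and the highest ratio of the combination, 1.43 (1.31–1.56). With the macrophage list under 0.1% of UMIs, that neutrophil ratio was 1.58 (1.28–1.97). In each library monocytes had the highest Ly6e level and neutrophils the lowest.

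Ly6i, the myeloid member, was highest in monocytes in every library. Classical monocytes measured 232, 259, 214 and 458 CPM, with the combination 1.98-fold (1.84–2.13) above isotype and the other 3 libraries close together. Nonclassical monocytes measured 85.8, 157, 90.8 and 159 CPM, where library A and the combination did not differ beyond counting error (1.01, 0.883–1.16) and both lay above the others. Over both subsets Ly6i measured 153, 214, 164 and 358 CPM, a combination ratio of 2.34 (2.19–2.49), or 1.94 at isotype cluster shares.

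In macrophages Ly6i measured 24.5 (23.5–25.6), 48.2 (46.6–49.9), 11.5 (10.8–12.3) and 115 (113–117) CPM. No interval overlapped another, and the libraries stood in the same order as for Ly6a. The combination was 4.68-fold (4.46–4.92) above isotype, 2.38-fold above library A and 9.97-fold above library B. In macrophages thinned to 1891 UMIs, 4.11%, 7.03%, 2.11% and 17.0% had a Ly6i UMI. Mast cells and basophils, set beside them as a class with little Ly6i, held 0, 0, 1 and 11 UMIs, and 0%, 0%, 0.922% and 2.38% of them had one after the same thinning. The 2.11% of library B macrophages was above the 0.922% of this class in library B, which rested on 1 UMI. It was no higher than the 2.38% of this class in the combination library. Mast cells and basophils had a median depth of 5593.5 to 8917 UMIs before thinning, against 18484.5 to 24411.5 in macrophages.

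Neutrophils measured 67.9 (46.1–96.4), 155 (116–202), 127 (89.0–176) and 241 (221–263) CPM of Ly6i, with a combination ratio of 3.55 (2.47–5.28). The UMIs lay in 12, 20, 4 and 167 of the 112, 91, 49 and 468 cells, so the level of library B, though above that of isotype, rested on 4 cells. In neutrophils low in the macrophage list the levels were 10.3, 190, 276 and 280 CPM from 1, 23, 27 and 119 UMIs, so the isotype value there rested on a single UMI (ratio 27.1, 4.77–1079). The UMIs lay in 1, 8, 2 and 44 of the 34, 37, 27 and 125 cells, so the library B level in that range came from 2 cells. The myeloid list was not used to choose these neutrophils, and the part of monocyte RNA in their Ly6i was not tested. NK cells held 18.1, 0.819, 19.0 and 49.99 CPM of Ly6i from 56, 2, 41 and 231 UMIs, just under the 50 CPM minimum, with a ratio of 2.76 (2.05–3.76). These UMIs lay in only 13, 2, 6 and 40 NK cells.

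**Figure D3:**
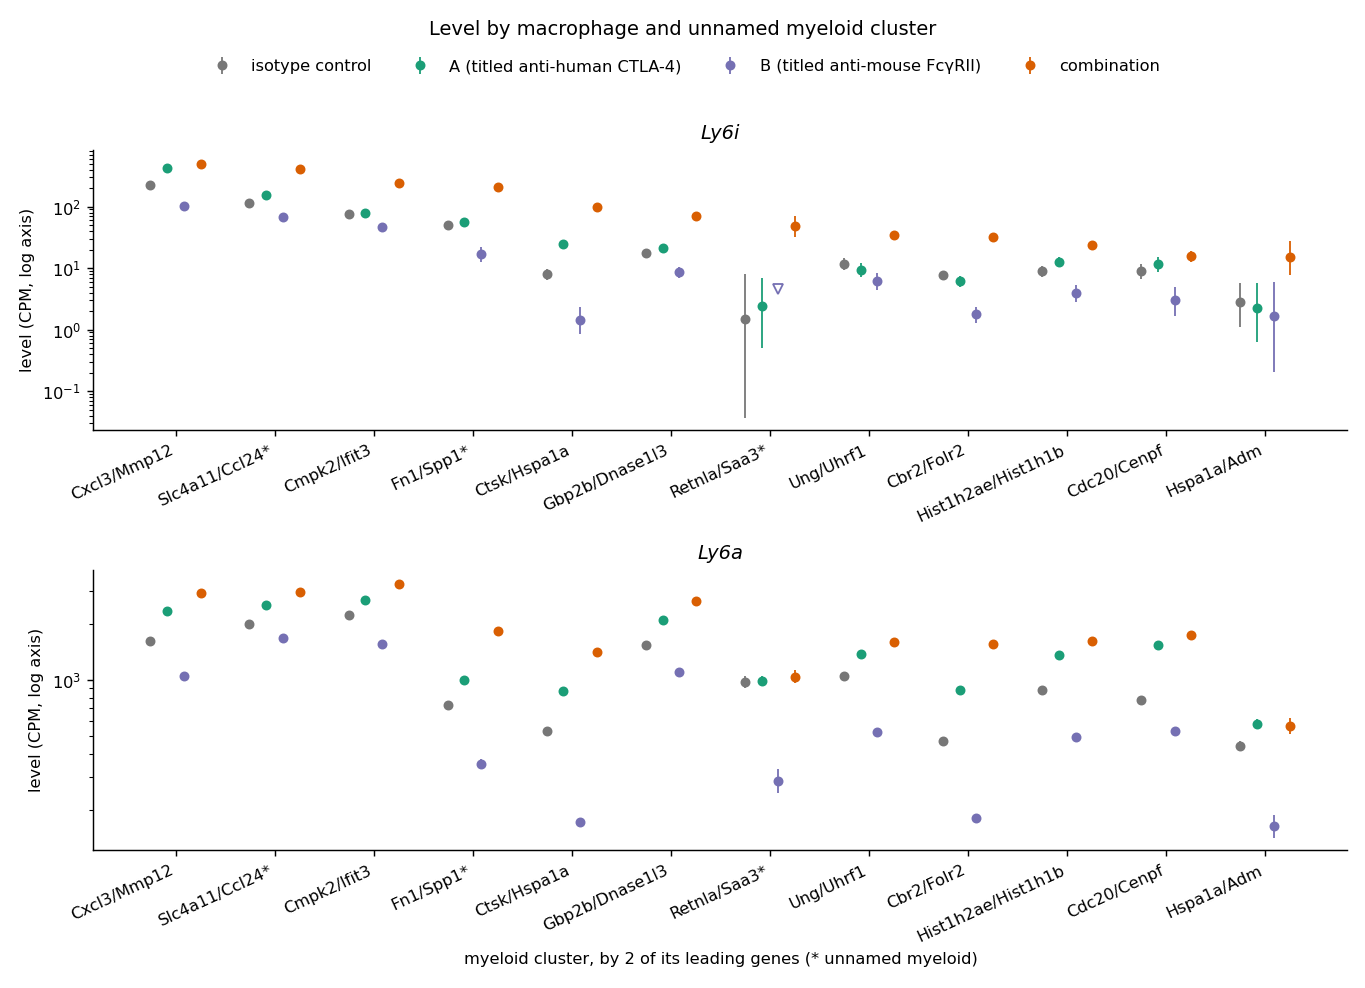
Level of Ly6i and Ly6a (CPM) by library in 9 macrophage clusters and 3 unnamed myeloid clusters (asterisk), each named by its 2 leading genes. The combination is above isotype for both genes in all 9 macrophage clusters, and Ly6i is highest in the cluster led by Cxcl3 and Mmp12.

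The difference in macrophages was seen within the clusters as well as over all of them. Ly6a was higher in the combination than in the isotype library in 9 of 9 macrophage clusters (ratios 1.28 to 3.34, median 1.83) and Ly6i in 9 of 9 (1.75 to 12.4, median 3.23), while Ly6e ranged from 0.906 to 1.31. At isotype cluster shares, the macrophage ratios were 1.99 for Ly6a, 1.15 for Ly6e and 3.32 for Ly6i. The tissue-macrophage cluster led by Cbr2 and Folr2, a folate receptor, had low Ly6i, 7.70, 6.08, 1.77 and 31.8 CPM, and Ly6a of 468, 875, 181 and 1561 CPM. In the cluster led by Ctsk, a cathepsin, Ly6i measured 7.91, 24.8, 1.45 and 98.4 CPM, a ratio of 12.4 (10.1–15.4) and the widest of the 9. The cluster led by Gbp2b and Dnase1l3, with the interferon-γ-induced chemokine Cxcl9 among its leading genes, measured 17.4, 21.4, 8.53 and 71.1 CPM of Ly6i and 1527, 2101, 1099 and 2630 CPM of Ly6a. Library B was the lowest of the 4 for both genes in all of these clusters.

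Among the 9 macrophage and 3 unnamed myeloid clusters, a pair held the highest Ly6i in all 4 libraries. The macrophage cluster led by Cxcl3, a neutrophil chemokine, Mmp12, a macrophage elastase, and Nos2, the inducible nitric oxide synthase, measured 228, 430, 102 and 501 CPM in 220, 261, 204 and 573 cells, a ratio of 2.20 (2.05–2.36). An unnamed myeloid cluster led by Slc4a11 and Ccl24 measured 113, 155, 68.0 and 412 CPM. Ly6i was among the 10 leading genes of both clusters. Leading genes were ranked after the clusters had been built without the Ly6 genes, so that rank restates the high level. Among the macrophage clusters Ly6a and Ly6e were instead highest, in all 4 libraries, in the cluster led by the type I interferon response genes Cmpk2 and Ifit3, with 2215, 2690, 1549 and 3257 CPM of Ly6a and 3756, 3959, 3449 and 4000 CPM of Ly6e. Ly6i measured 74.5, 78.6, 45.9 and 241 CPM in that cluster.

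Ly6i in T cells was examined for macrophage RNA, since macrophages of the same libraries held this transcript and T cells held macrophage markers. T cells measured 8.88 (6.81–11.4), 11.9 (9.24–15.0), 4.60 (2.81–7.10) and 62.3 (56.9–68.1) CPM, from 62, 69, 20 and 491 UMIs. The isotype and library A intervals overlapped, and the combination stood 7.02-fold (5.38–9.29) above isotype, 5.24-fold above library A and 13.6-fold above library B. These UMIs lay in few cells: 25, 22, 9 and 88 T cells held any, and 67 cells in all held 3 or more. In the combination library 10 cells held 40.3% of them. Without integration of the libraries, which moves most of these cells out of the T cell clusters, the ratio of combination to isotype was 3.39 (1.11–13.9).

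The cells that held Ly6i also held macrophage and myeloid RNA. In T cells with a Ly6i UMI the median total was 42966, 20403, 35014 and 25141 UMIs, against 4491, 5055.5, 5744 and 5661.5 in T cells without one. In the combination library the positive cells had a median of 202.5 UMIs from the myeloid list, and the negative cells had 3. All 67 cells with 3 or more Ly6i UMIs held UMIs of both T cell and macrophage markers, and 85.9% of T cells without Ly6i, at their lower depth, also held a UMI of a macrophage marker. Their macrophage list summed to 21372 CPM, their myeloid list to 9611 and their T cell list to 3153, against 13233, 4676 and 6943 CPM in T cells without Ly6i. Of the 642 Ly6i UMIs in 1961 T cells, 599 (93.3%) lay in the 396 cells that fell in a cluster of mixed T cell and macrophage markers when the libraries were clustered without integration. The 1100 cells low in both lists, 56.1% of T cells, held 12 of the UMIs (1.87%). Depth differed between T cells, so a share of cells is not a share of their UMIs, and levels in CPM follow.

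T cells low in both lists measured 1.97, 1.16, 1.15 and 3.80 CPM of Ly6i, from 2, 4, 1 and 5 UMIs, and the ratio of combination to isotype there was 1.93 with an interval of 0.317 to 20.3. No difference was detectable at that depth. Between 0.1% and 1% of UMIs in the macrophage list the levels were 16.9, 59.6, 4.20 and 149 CPM, and at 1% or more they were 8.72, 8.28, 5.02 and 56.0 CPM. Ly6i was therefore not proportional to the macrophage list, and was highest in the middle range in 3 of the 4 libraries. By kind of T cell, Ly6i measured 3.27, 9.75, 1.12 and 55.3 CPM in CD8 cells (ratio 16.9, 8.06–42.5) and 15.4, 6.96, 0 and 105 CPM in conventional CD4 cells. These values include cells with macrophage and myeloid RNA. In the combination library, T cells of every kind low in both lists held only 5 of the 491 Ly6i UMIs.

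**Figure D4:**
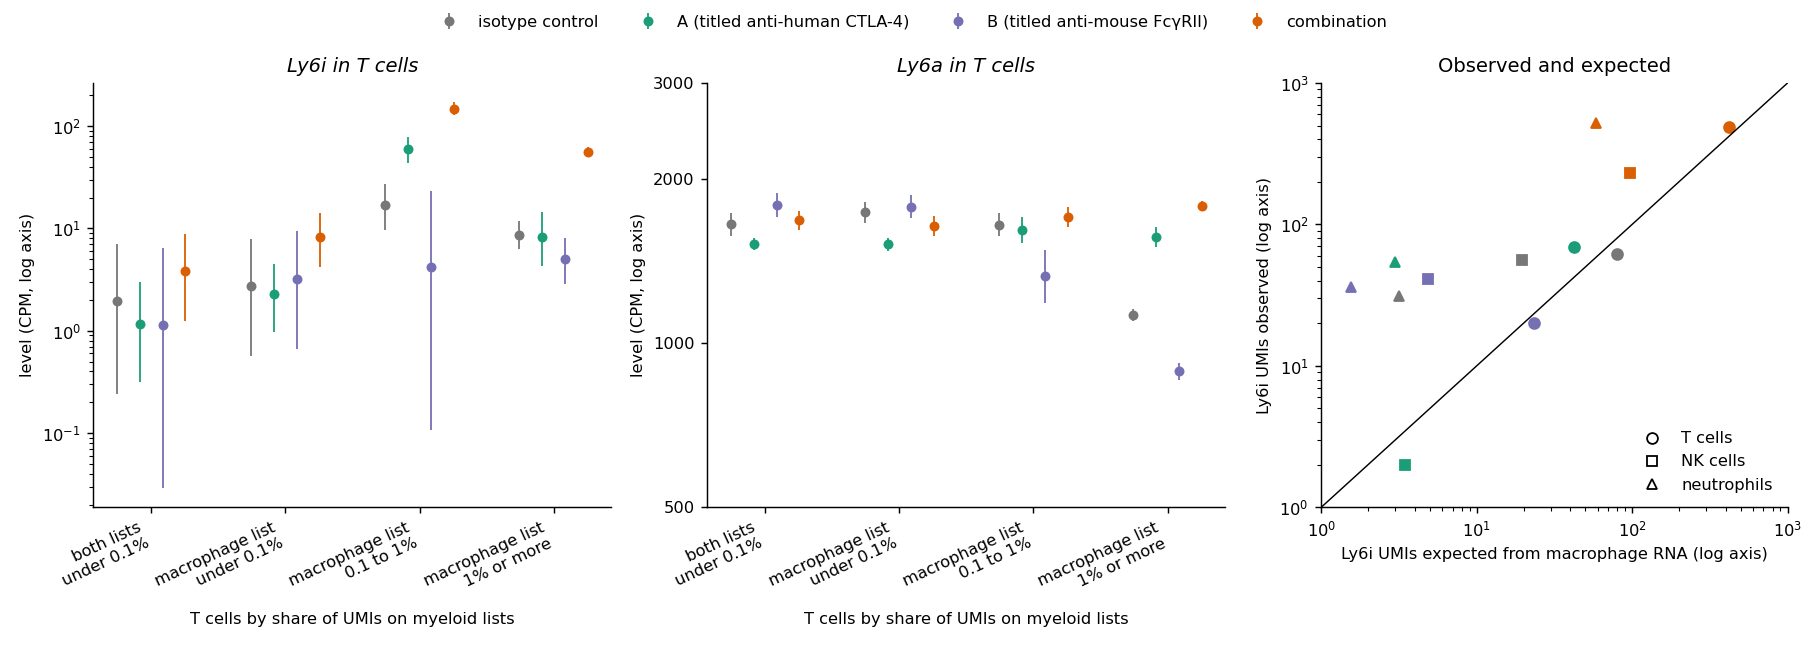
Left and middle, Ly6i and Ly6a (CPM) in T cells binned by the share of UMIs from the macrophage or both myeloid lists, by library. Right, observed Ly6i UMIs in T cells (circles), NK cells (squares) and neutrophils (triangles) against the number expected from the macrophage list alone, with the line of equality: T cells lie on both sides of the line (62, 69, 20 and 491 observed against 80.3, 42.3, 23.5 and 417 expected), NK cells lie above it in 3 libraries and below it in library A, and neutrophils lie above it in all 4.

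The amount expected from macrophage RNA was computed by scaling each library's own macrophage Ly6i level to the macrophage markers in its T cells. This gave 80.3, 42.3, 23.5 and 417 expected UMIs, against 62, 69, 20 and 491 observed, so the observed number was 0.772 (0.589–0.994), 1.63 (1.27–2.07), 0.851 and 1.18 (1.07–1.29) times the expected one. In isotype and library B the expectation was above the observed number, and in library A and the combination it was below. With monocytes and macrophages together as the source, the values were 0.453, 1.19, 0.491 and 0.965. The ratio was not the same throughout the cells: in the combination library, 12 UMIs were observed against 2.06 expected in T cells with under 0.1% of macrophage markers, 192 against 17.1 between 0.1% and 1% (11.2-fold, 9.70–13), and 287 against 398 at 1% or more (0.721, 0.639–0.810). With classical monocytes as the source and the myeloid list as the measure, 153 UMIs were expected in the middle range, and the observed number was 1.25-fold (1.07–1.45) that. Taking the macrophage cluster with the highest Ly6i as the source instead gave a ratio of 0.171 over all T cells of the combination library. With other clusterings the ratio was higher, at 2.00 with 20 principal components, 2.06 at a finer resolution of 1.2 and 3.51 at a coarser resolution of 0.4. Which myeloid cell is taken as the source, and which cells are called T cells, thus set how much Ly6i is left over.

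The same calculation was made for other classes with macrophages as the source. Monocytes held more Ly6i beside fewer macrophage markers. In the combination library they measured 358 CPM of Ly6i and 9983 CPM of the list, against 115 and 34441 CPM in macrophages. The values below depend on the source taken, so they cannot tell Ly6i of a class from that of myeloid RNA. The cluster that mixed T cell and macrophage markers held 909, 240, 148 and 2989 Ly6i UMIs, or 1.28, 0.765, 1.2 and 1.07 times the expectation. NK cells held 2.86, 0.581, 8.49 and 2.38 times the expectation, on 56, 2, 41 and 231 UMIs in 13, 2, 6 and 40 cells. In library B, 1 cell held 29 of the 41 UMIs. NK cells low in both lists held 0, 2, 0 and 3 UMIs. Neutrophils held 9.78, 18.1, 23.2 and 8.98 times the expectation, and where macrophage markers were lowest library A and the combination held 190 and 280 CPM. For Ly6a in T cells the expectation was 3051, 1275, 1083 and 7376 UMIs against 9032, 8968, 4795 and 13762 observed, so the observed number was 2.96, 7.03, 4.43 and 1.87 times the expected one, above it in every library.

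Ly6g, the neutrophil marker, was found in neutrophils and almost nowhere else, but at a low level. Neutrophils measured 37.2 (21.7–59.6), 8.61 (1.78–25.2), 28.2 (12.2–55.6) and 17.5 (12.4–24.1) CPM, from 17, 3, 8 and 38 UMIs in 10, 3, 3 and 21 cells. The combination was at 0.471 (0.259–0.890) of isotype and library A at 0.231 (0.0434–0.80), on few UMIs in few cells of 1 library each. Of genes at 50 CPM or more in neutrophils, a level Ly6g did not reach, 5.37% and 8.21% were 2-fold lower in these comparisons. In neutrophils low in the macrophage list the ratio of combination to isotype was 0.387 (0.167–0.946). After thinning, 7.58%, 1.86%, 4.78% and 3.14% of neutrophils had a Ly6g UMI, against at most 0.0522% of T cells, at median depths of 2966 to 3499 UMIs in neutrophils and 4674 to 6565 in T cells. T cells held 1, 0, 0 and 1 UMIs of Ly6g and macrophages 0, 2, 5 and 12. Ly6g was thus the only member that was lower in the combination in neutrophils, the class in which Ly6a and Ly6i were higher, and these neutrophils were 6.48% of cells in the combination and 0.848 to 1.51% elsewhere. The neutrophil marker list was lower there too, at 30989 CPM in the combination against 46195, 46845 and 47998 CPM in the others, and its part in the Ly6g value was not tested.

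Genes with the most similar pattern were sought over 20 values, the 5 classes in 4 libraries, which share libraries and depth. For Ly6i, the Pearson correlations of log2(CPM + 1) were highest with F10 (0.96), which encodes coagulation factor X, C3 (0.96), the central complement component, and Tarm1 (0.94), a myeloid receptor. The values for Ly6a were lower, with Gbp2b (0.84), an interferon-induced guanylate-binding protein, at the top, followed by Slamf6 (0.82), a lymphocyte receptor, and Slco3a1 (0.81). Ly6g followed Rabgef1 (0.99), Ifit1bl2 (0.98) and the neutrophil granule gene Retnlg (0.98). Ly6e followed Casp6 (0.93), the proteasome assembly factor Pomp (0.93) and Dr1 (0.92). Between members, over the same values, in which differences between classes weigh as well as those between libraries, r was 0.16 for Ly6a and Ly6i, 0.51 for Ly6a and Ly6e, 0.22 for Ly6e and Ly6i, 0.39 for Ly6g and Ly6i, -0.47 for Ly6a and Ly6g and -0.75 for Ly6e and Ly6g.

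Interferon-γ response genes were read beside the members from a list of 26, since interferon induces Ly6a. Whether interferon of any type set the levels of the members was not tested. At least 2-fold higher in combination than in isotype were 10 of 25 measured in monocytes (median ratio 1.58, against 0.950 over all genes), 12 of 24 in macrophages (1.96 against 0.936), 19 of 25 in neutrophils (2.25 against 0.968), 5 of 24 in T cells (1.31 against 0.976) and 2 of 22 in NK cells (1.01 against 0.987), with none 2-fold lower. Within monocytes the count was 12 of 24 in the nonclassical subset (median 2.04) and 3 of 25 in the classical subset (1.30). In macrophages the list ran from 8.73-fold for Nos2, through 3.81-fold for Socs1, a feedback inhibitor of cytokine signalling (76.0 to 290 CPM), to 1.11-fold for Ciita, the MHC class II activator. Neutrophils had Iigp1, an interferon-induced GTPase, at 11.0 and 76.6 CPM (6.99-fold) and the chemokine Cxcl10 at 206 and 1037 CPM (5.04-fold). The highest ratio in T cells was that of Nos2, a macrophage gene, at 31.4 and 338 CPM (10.8-fold). Ly6i was thus not the only myeloid transcript higher in the T cells of the combination. Both were also higher in the macrophages of that library, 4.68-fold for Ly6i and 8.73-fold for Nos2. In T cells of isotype and combination, the macrophage markers summed to 18584 and 15867 CPM, and the general myeloid markers to 6356 and 6809 CPM. These sums do not tell how much Ly6i or Nos2 came with macrophage RNA, and the source of Nos2 was not tested.

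Type I interferon response genes were read from a list that holds none of the 4 members, and their median ratios were lower than those of the interferon-γ list in all 5 classes. At least 2-fold higher were 1 of 23 in monocytes (median 1.16), 0 of 23 in macrophages (1.15), 1 of 24 in neutrophils (1.40), 0 of 22 in T cells (0.874) and 0 of 16 in NK cells (0.909, with 1 lower). The genes past 2-fold were Rsad2, an antiviral enzyme, in monocytes (75.2 to 155 CPM, 2.06-fold) and the signalling factor Stat2 in neutrophils (2.03-fold). In the same macrophages Isg15, a ubiquitin-like modifier, had a ratio of 1.55 and Ifit3 a ratio of 0.868, on either side of the 1.17 of Ly6e.

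Genes of classical monocytes, the cells marked by Ly6c2, were read from a list of their own. In classical monocytes 0 of 8 were 2-fold higher or lower (median 0.903), with Chil3, a chitinase-like protein, at 1.07 and the chemokine receptor Ccr2 lowest, at 1550 and 824 CPM (0.532). In macrophages 1 of 5 was higher and 2 were lower (median 0.639): Chil3 measured 66.4 and 337 CPM (5.08-fold), while Ccr2 stood at 521 and 185 CPM (0.356) and F13a1, a coagulation factor subunit, at 0.488. The higher Ly6i of classical monocytes in the combination was thus not shared by this list. Nonclassical genes were 2-fold lower for 3 of 6 in classical monocytes (median 0.50), against 0.382% of all genes there. Ace, a peptidase, was 1 of the 3, at 214 and 85.2 CPM (0.399).

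T cell memory and effector genes were read in T cells, since Ly6a is known from memory and effector lymphocytes. Of 11 measured, 1 was at least 2-fold higher in the combination and 1 was 2-fold lower (median 0.956, against 0.976 over all genes). The higher gene was Ifng, which encodes interferon-γ, at 238 and 779 CPM (3.27-fold), and the lower was Ccr7, the receptor that guides T cells to lymph nodes, at 62.6 and 31.0 CPM (0.495). Gzmk, a granzyme, stood just inside 2-fold at 38.4 and 75.4 CPM (1.96).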

How the data were processed

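Single-cell RNA was measured with Chromium Flex, a probe-based assay on fixed cells, in 4 libraries of viable CD45+ cells. The authors deposited raw UMI counts per gene and cell, made with Cell Ranger (7.0.0 in the submitters' processing notes, 7.2.0 in the matrix header) on a mouse mm10 reference. Cells with at least 500 genes and at most 10% mitochondrial counts were kept, and the 5% of cells per library with the highest Scrublet scores (scanpy 1.11.5) were left out as likely doublets, because the automatic threshold marked at most 1 cell per library. The article used Seurat v4 and DoubletFinder. Libraries were integrated with sctransform 0.4.2 and Seurat 5.3.0 (R 4.3.3) on 3000 features, from which the Ly6 genes were removed, and clustered with 30 principal components at resolution 0.8 into 27 clusters, which were named from marker lists. UMIs were summed per class and library and divided by the class total, per 1000000 (Python 3.11.15, numpy 2.4.6, pandas 2.3.3). Ratios were counted as differing at 2-fold where 1 library held 50 CPM or more. Intervals are exact (95%, scipy 1.17.1). Total depth was 129151823 to 196362818 UMIs per library.

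The members and gene lists were chosen with earlier results of these data known. The text names the members in every class, the 3 genes most correlated with each, and of each list the 2 highest and 2 lowest ratios, of which not all are printed. The calculations were run on simulated counts without spread between cells, which checks the arithmetic only. The expected-UMI step gave 1.03 there, but its RNA was drawn from the source itself. That value says nothing on the choice of source. Alternatives covered integration, resolution, principal components, doublets, scaling, minimum level, fold, source of macrophage RNA and choice of cells, and 6 of them were added after seeing the data. Samples were grouped by the labels. With 1 library per group there was no test between groups. Tumors of 11 mice were pooled per library, so mice could not be separated. Ly6c1 and Ly6c2 were not analysed here.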

Additional observations from a re-analysis of the deposited data

Results flagged for a closer look

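Signal was found outside the 4 members and the 5 classes, above the limit that a count of 0 allows, in 8 cases, given as CPM over all libraries. Ly6a, the Sca-1 antigen, measured 1732.0 CPM in dendritic cells, 3206.0 in mast cells and basophils, 1499.0 in the cluster of mixed T cell and macrophage markers and 1813.0 in the unnamed myeloid clusters. Of the wider Ly6 and uPAR family, 4 of 32 genes reached 50 CPM in a class. Ly6d, a marker of B-lineage cells, measured 1866.0 CPM in B cells, and Lynx1, a modulator of acetylcholine receptors, 98.46 CPM in B cells. Plaur, the urokinase receptor, measured 1299.0 CPM in neutrophils, where its ratio of combination to isotype was 1.17. Cd177, a granulocyte surface protein, measured 164.3 CPM in nonclassical monocytes, and over all monocytes it stood at 151 CPM under isotype and 94.5 CPM under the combination (0.624). Nonclassical and classical monocytes numbered 561 and 423 under isotype and 219 and 403 under the combination. The part of that mix in the pooled Cd177 ratio was not tested.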

How the results depend on the processing

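No paired analysis was possible because each group is 1 library. Of the 7 pairs that were 2-fold higher in the combination, 4 fell below 2-fold under an alternative: Ly6a in monocytes (1.94) and macrophages (1.99) at isotype cluster shares, Ly6i in monocytes (1.94) at those shares, Ly6a in macrophages (1.92) and Ly6i in monocytes (1.86) at resolution 0.4, and Ly6i in T cells low in both lists (1.93). None of the 7 fell below 1, while Ly6a (lowest 0.972) and Ly6e (lowest 0.912) in T cells, outside the 7, did. For Ly6i in T cells (7.02 as reported) the ratio was 3.39 without integration, 9.69 at resolution 0.4, 3.00 in T cells with under 0.1% of macrophage markers, 16.9 in CD8 cells and, in an alternative chosen after seeing the data, 1.93 in cells low in both lists. For Ly6a in T cells (1.35) it was 0.972 without integration, 1.25 at resolution 0.4, 1.39 with Ly6 genes kept among the features, 1.21 with 10% of cells left out as doublets, 1.40 with size factors, 1.10 as a mean over cells, 1.86 in CD8 cells and, chosen after seeing the data, 1.02 in cells low in both lists. Observed over expected Ly6i in T cells of the combination (1.18) was 1.52 without integration, 3.51 at resolution 0.4, 2.06 at 1.2, 2.00 with 20 components, 1.47 with 10% doublets left out, 0.965 from monocytes and macrophages together and 0.171 from the macrophage cluster with most Ly6i. The count of pairs 2-fold higher was 5 to 9 (7 as reported), and that of pairs 2-fold lower was 1 in place of 0 as a mean over cells, at 10 CPM and with no minimum. The cause was not tested beyond the choice of cells that each alternative makes. Ly6g in neutrophils ranged from 0.357 to 0.523, Ly6a from 1.92 to 2.38 in macrophages and from 3.07 to 7.0 in neutrophils, and Ly6i from 3.32 to 8.23 in macrophages and from 2.49 to 27.1 in neutrophils. Ly6c2 in monocytes was not run. Depth limits Ly6g, with 3 to 17 UMIs in the 3 libraries with few neutrophils, and Ly6i in T cells low in both lists, with 1 to 5 UMIs per library.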

Other observations

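Among cells outside the 5 classes, mast cells held the most Ly6a of any cluster under the combination. The mast cell cluster measured 2406, 4392, 3748 and 5305 CPM in the order isotype, library A, library B and combination, and the basophil cluster measured 15.2, 41.7, 0 and 23.2 CPM, so the class of both together, at 1797, 3564, 3579 and 4684 CPM (ratio 2.61), took its Ly6a from mast cells. These were few, since the class held 66, 25, 23 and 35 cells. Dendritic cells measured 1334, 2001, 1709 and 2094 CPM of Ly6a (1.57) and 35.8, 86.8, 44.5 and 166 CPM of Ly6i. Their cluster led by Ccr7 and Ccl22, genes of migratory dendritic cells, ranged more widely in Ly6a, at 52.7, 296, 806 and 962 CPM. Library B was nearer the combination than isotype there, unlike in macrophages. That cluster held only 37, 17, 14 and 37 cells, so the library B level rested on 14 cells.

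The unnamed myeloid clusters measured 1605, 1956, 1214 and 2500 CPM of Ly6a and 90.5, 112, 49.3 and 330 CPM of Ly6i. In the 3 clusters taken singly, the ratio of combination to isotype for Ly6i ran from 3.65 to 32.7.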
